A study of Mus musculus with 2 samples.

Results

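Expression of 33 interferon response and antigen presentation genes was described in cultured mouse germ cells with and without FGF9. The genes were taken by name from the 32285 genes of the deposited matrices, and all 33 were found in both libraries. They comprise 5 receptor and kinase genes, 8 transcription factor genes, 6 effector genes, the 3 genes Parp9, Parp14 and Dtx3l, 6 genes of class I antigen presentation and peptide loading, and 5 genes of the immunoproteasome and its PA28 activator. The cells were THY-1+ germ cells, a culture enriched for spermatogonial stem cells (SSC), grown in serum-free medium on STO feeders, a mouse fibroblast line. According to the labels, both cultures were kept with GDNF (20 ng/ml), soluble GFRA1 (150 ng/ml) and FGF2 (1 ng/ml) and used at passages 9 to 12, and a further label of the FGF9-treated library gives passages 9 to 13. The control library received 0 ng/ml FGF and the FGF9-treated library 20 ng/ml FGF9, each for 48 h. For the treatment the study gives a fresh medium holding either FGF9 or only its albumin carrier. A figure legend of the study describes the control cells as without growth factors over these 48 h. The labels themselves do not settle which of GDNF, GFRA1 and FGF2 were present during those hours. Each treatment is 1 library of pooled cultured cells, so every difference given here is between these 2 libraries and no test between treatments exists.

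Interferons bind paired receptor chains whose JAK kinases phosphorylate STAT proteins. STAT2 with IRF9 then acts on interferon-stimulated response elements (ISRE), and STAT dimers act on gamma-activated sequences (GAS). Among the induced genes are antiviral effectors and the machinery of class I presentation, in which the immunoproteasome cuts proteins, the TAP transporter carries the peptides into the endoplasmic reticulum, and tapasin helps to load them on a class I heavy chain paired with beta-2 microglobulin. Male germ cells are known for low class I levels, and IFITM genes are known to be active in early germ cells.

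Barcodes with at least 2000 genes and at most 20% mitochondrial UMIs (unique molecular identifiers, 1 per captured transcript) were kept. Those with under 40 UMIs of the fibroblast genes Vim and S100a6 together were counted as germ cells, and those with 40 or more as feeder class. This gave 4157 control and 4537 FGF9-treated germ cells, with medians of 14824 and 13067 UMIs, and 31 and 63 feeder-class barcodes. The highest sum of Vim and S100a6 in a germ cell was 22 UMIs in both libraries, and the lowest in the feeder class was 41 and 40. The libraries shared 11 barcode sequences. All 10 germ cell markers were found in germ cells of both libraries, among them Dazl at 1729 and 1823 CPM (counts per 1000000 UMIs of the same cells), which was also present in the feeder class at 270 and 102. Of 10 leukocyte markers, the macrophage genes Lyz2, Adgre1 and C1qa had 0 UMIs in germ cells of both libraries, and the whole list summed to 1.60 and 4.52 CPM.

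Promoters were read from RefSeq on build GRCm38.p6, from 250 bases before to 50 after each start site. The table matched 28 of the 33 genes, and Tap2, Parp9, Parp14, Serping1 and Nlrc5 had no entry. An ISRE core, spelled as GAAA, any 2 bases and again GAAA, and searched on both strands, was found for 8 of the 28 genes (B2m, Bst2, Ifitm2, Ifitm3, Irf2, Isg15, Psme1 and Stat2), beside 3.99% of all 27025 genes in the table. The GAS spelling TTCNNNGAA, which can share bases with an ISRE match, was found for 7 of the 28 (Bst2, Ifitm3, Ifnar1, Ifnar2, Irf1, Irf2 and Psmb8), beside 9.55% of all genes. A match describes letters and not binding. The 5 promoters printed here belong to genes with different directions between the libraries, and ISRE core matches are in capitals with the start site counted as position 0. The Isg15 promoter (chr4:156200769-156201068, minus strand) holds 3 overlapping matches, the first at position -78, and that of B2m (chr2:122147437-122147736, plus strand) holds 1 at position -139. The Ifitm3 promoter (chr7:141010695-141010994, minus strand) holds 2, the first at position 2, and in Psme1 (chr14:55578244-55578543, plus strand) the match lies at position 9 and is read on the other strand. The Tap1 promoter (chr17:34187306-34187605, plus strand) has no ISRE or GAS match and shares 275 of its bases with the window of Psmb9, which lies on the other strand.
Isg15: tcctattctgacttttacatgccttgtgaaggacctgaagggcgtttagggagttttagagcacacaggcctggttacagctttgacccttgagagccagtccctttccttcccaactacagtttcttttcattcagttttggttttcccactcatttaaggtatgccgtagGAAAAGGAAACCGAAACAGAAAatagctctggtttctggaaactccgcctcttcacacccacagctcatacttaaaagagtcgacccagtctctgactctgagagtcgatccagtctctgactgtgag
B2m: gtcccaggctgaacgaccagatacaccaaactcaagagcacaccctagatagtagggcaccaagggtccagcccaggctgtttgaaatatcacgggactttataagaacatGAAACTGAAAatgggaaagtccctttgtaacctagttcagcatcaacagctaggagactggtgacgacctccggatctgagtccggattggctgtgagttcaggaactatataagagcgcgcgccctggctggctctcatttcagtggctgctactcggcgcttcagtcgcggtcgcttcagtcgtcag
Ifitm3: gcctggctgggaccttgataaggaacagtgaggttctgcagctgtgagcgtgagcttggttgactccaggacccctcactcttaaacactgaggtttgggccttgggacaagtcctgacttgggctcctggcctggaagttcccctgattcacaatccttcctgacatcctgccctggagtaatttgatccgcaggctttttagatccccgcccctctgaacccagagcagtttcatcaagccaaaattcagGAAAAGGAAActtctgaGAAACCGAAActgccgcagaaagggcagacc
Psme1: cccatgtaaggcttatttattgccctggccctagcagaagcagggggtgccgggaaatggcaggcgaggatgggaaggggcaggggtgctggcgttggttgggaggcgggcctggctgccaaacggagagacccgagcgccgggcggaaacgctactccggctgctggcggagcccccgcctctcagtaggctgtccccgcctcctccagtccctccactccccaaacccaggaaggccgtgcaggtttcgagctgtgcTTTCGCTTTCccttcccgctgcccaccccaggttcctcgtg
Tap1: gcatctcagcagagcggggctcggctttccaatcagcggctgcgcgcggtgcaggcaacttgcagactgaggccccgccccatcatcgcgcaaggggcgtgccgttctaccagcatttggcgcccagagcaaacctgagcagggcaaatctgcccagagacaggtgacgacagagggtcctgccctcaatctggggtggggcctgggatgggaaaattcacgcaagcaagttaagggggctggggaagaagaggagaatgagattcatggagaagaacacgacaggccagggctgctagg

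Between the libraries some of the genes compared were called higher and more were called lower. UMIs were summed over germ cells and given as CPM, with 95% intervals in parentheses that cover counting error only, and the 31 genes with at least 100 germ cell UMIs were compared. A gene was called higher or lower when the log2 ratio of FGF9-treated over control was at least 0.3 in size and its interval left out 0. By this rule 6 of the 31 were higher in FGF9-treated germ cells, where 15.5% of the 13923 genes compared were, and 12 were lower, where 18.8% were. The median log2 ratio was -0.11 over the 31 genes and -0.04 over all genes compared. Called higher were Ifnar2, Ifitm1, Ifitm2, B2m, Jak1 and Ifitm3. Called lower were Serping1, Tap2, Irf1, Psme1, Isg15, Psmb8, Tapbp, Ifngr2, Stat2, Bst2, Psmb9 and Psme2.

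**Figure D1:**
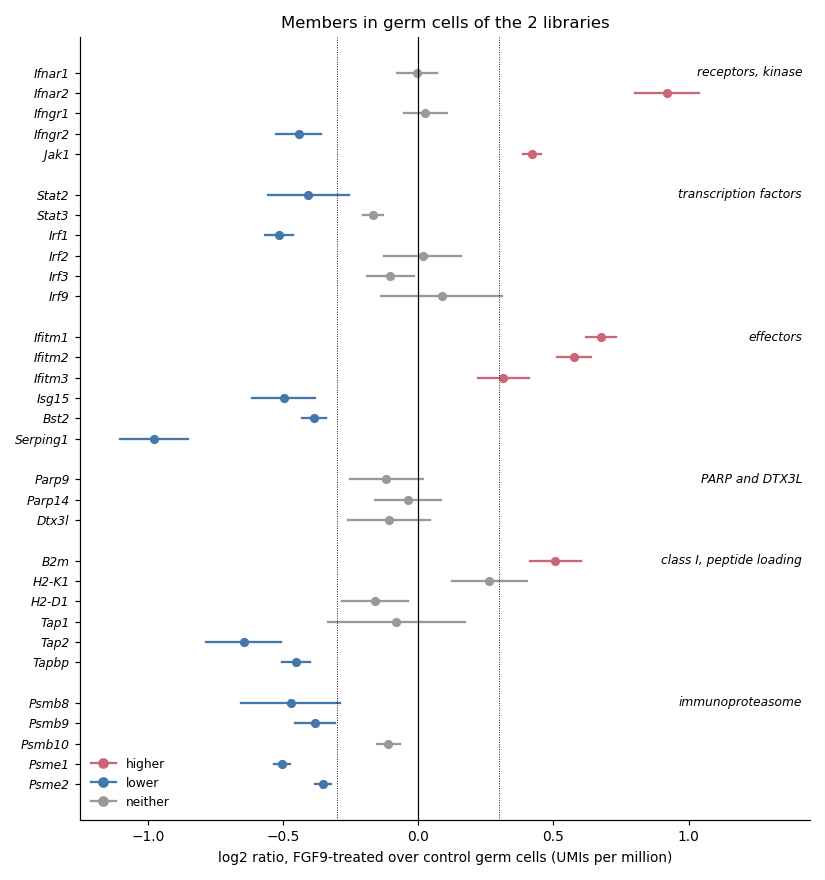
Log2 ratio of FGF9-treated over control germ cells for the 31 genes compared, grouped by role. Points are ratios of CPM, bars are 95% counting intervals and dotted lines mark 0.3 on either side of 0, and all 5 immunoproteasome genes lie below 0 while receptors and effectors lie on both sides.

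The receptor chains lay apart. Ifnar2, the high-affinity chain of the type I interferon receptor, stood at 13.2 CPM (12.3 to 14.1) in control and 25.0 (23.8 to 26.2) in FGF9-treated cells, with a log2 ratio of 0.92 (0.80 to 1.04). Its partner chain Ifnar1 stood at 43.6 and 43.4 CPM (-0.01, -0.08 to 0.07). Thus the chains of 1 receptor differed, and their intervals did not overlap. Of the interferon gamma receptor, the accessory chain Ifngr2 was lower, at 30.3 against 41.1 CPM (-0.44, -0.53 to -0.36), and the ligand-binding chain Ifngr1 stood at 37.7 and 38.4. Jak1, a kinase of both receptors, was higher, at 276 against 206 CPM (0.42, 0.39 to 0.45). Ifnar2 (chr16:91372783-91405589, mm10) and Ifngr2 (chr16:91547072-91565623) lie close together with Ifnar1 between them, so these neighbours had 3 different results.

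None of the 6 transcription factors compared was higher. Irf1, an activator of class I and immunoproteasome genes, stood at 108 CPM (106 to 111) in control and 75.9 (73.8 to 78.0) with FGF9, for a log2 ratio of -0.51 (-0.57 to -0.46). Stat2, a transducer of type I signalling, was lower as well, at 9.57 against 12.7 CPM (-0.41, -0.56 to -0.26). There was no call for Stat3 (-0.17), which serves IL-6 family cytokines, for Irf3 (-0.10), which acts after nucleic acid sensors, for Irf2 (0.02), which competes with IRF1, or for Irf9 (0.09), the DNA-binding partner of STAT2. Irf7, an amplifier of the type I response, had 0 UMIs in control, which allows up to 0.0443 CPM, and 2 UMIs in FGF9-treated germ cells. Nlrc5, the transactivator of class I genes, had 19 and 37 UMIs, too few to be compared. Over receptors, kinase and transcription factors together, 2 of 11 genes were higher (15.5% of all genes) and 3 lower (18.8%), with a median of -0.01.

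Among the effectors, the IFITM genes and the others lay on opposite sides. All 3 IFITM genes, which restrict virus entry, were called higher. Ifitm1 stood at 63.7 CPM (61.8 to 65.6) in control and 102 (99.4 to 104) in FGF9-treated cells, with a log2 ratio of 0.68 (0.62 to 0.73), and Ifitm2 at 49.4 and 73.6 (0.58, 0.51 to 0.64). Ifitm3 was close to the threshold, at 24.2 and 30.1 CPM (0.32, 0.22 to 0.41). A single FGF9-treated barcode held 68 of that library's 2021 Ifitm3 UMIs, where the next cell held 12. That barcode also held 22 UMIs of Vim and S100a6 and 1 of Dazl, and without the richest cell of each library Ifitm3 was at 0.28 (0.19 to 0.38) and no longer called. The germ cells' level of the feeder collagen Col3a1 was 0.0638% of the feeder class level in the FGF9-treated library, and RNA of the feeder class at that share would amount to 4.55% of the Ifitm3 level. For Ifitm2, at 1332 CPM in the FGF9-treated feeder class, RNA at that share would amount to 1.15% of the germ cell level. Col3a1 was taken because it had the lowest share of the feeder markers, so 4.55% and 1.15% are low figures. The part of feeder RNA in the Ifitm2 and Ifitm3 ratios was not tested. Sparc stood at 0.743% and Timp1 at 1.61%, and whether germ cells express these genes themselves was not tested. The IFITM calls also depended on the choice of cells by cycle genes. Without a UMI of 12 cycle genes (99 control and 186 FGF9-treated cells), Ifitm1 was at -0.082 (-0.40 to 0.24) and Ifitm2 at 0.21 (-0.13 to 0.55). Without a UMI of that list other than Cenpf (427 and 508 cells), they were at 0.16 and 0.22, with no call in either choice. In the 2163 and 1890 cells without a UMI of 5 cycle genes, Ifitm1 and Ifitm2 kept their calls and Ifitm3 lost its call. The part of cycling in these calls was not tested. IFITM genes resemble each other in sequence, so the division of reads between them is uncertain.

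The other 3 effectors were lower. Serping1, the C1 inhibitor of the complement system, had the lowest ratio of the 31 genes, at 22.5 CPM (21.4 to 23.7) in control and 11.5 (10.7 to 12.3) with FGF9, for a log2 ratio of -0.98 (-1.10 to -0.85). Isg15, a ubiquitin-like modifier, stood at 21.4 and 15.2 CPM (-0.50, -0.61 to -0.38), and Bst2, the tetherin that holds budding virus at the membrane, at 136 and 104 (-0.39, -0.43 to -0.34). Of the 8 genes with an ISRE core match in the promoter, 4 were called lower (Bst2, Isg15, Psme1 and Stat2) and 3 higher (B2m, Ifitm2 and Ifitm3). Irf2 was not called. Of all genes compared, 18.8% were lower and 15.5% higher. Parp9, Parp14 and Dtx3l, which encode 2 PARP family proteins and the ubiquitin ligase partner of PARP9, had no call. Their ratios were -0.12 (-0.25 to 0.02), -0.04 (-0.16 to 0.08) and -0.11 (-0.26 to 0.05). Parp9 and Dtx3l overlap at their starts on opposite strands.

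In class I presentation the light chain and the loading genes differed in direction. B2m, the light chain, stood at 23.1 CPM (21.9 to 24.2) in control and 32.8 (31.4 to 34.2) in FGF9-treated cells, with a log2 ratio of 0.51 (0.41 to 0.60). It was not called in cells without a UMI of 12 cycle genes (0.25, -0.31 to 0.83) or of that list other than Cenpf (0.25, -0.035 to 0.55). The list of 12 feeder markers summed to 171 CPM in control and 244 in FGF9-treated germ cells, with Lgals1 at 95.3 and 137. Vim was at 3.65 and 18.5, while Col1a1 went the other way, at 22.3 and 12.3. Tagln (0.222 and 0.104, from 15 and 7 UMIs) and Acta2 (0.163 and 0.149, from 11 and 10) were also lower with FGF9. The remaining markers of the list were all higher, among them S100a6 (7.67 and 16.0), Timp1 (4.89 and 12.2) and Col3a1 (0.355 and 0.790). Feeder RNA at the share of Col3a1, the lowest share of these markers, would amount to 1.58% of the B2m level in control and 2.51% in FGF9-treated germ cells. These are low figures. In control and with FGF9, the share was 0.746% and 1.61% for Timp1, 0.706% and 0.743% for Sparc, and 4.43% and 2.55% for Col1a1. B2m stood at 1284 and 1288 CPM in the feeder class, and the part of feeder RNA in its ratio was not tested. The heavy chain genes H2-K1 (0.26, 0.12 to 0.40) and H2-D1 (-0.16, -0.28 to -0.04) were not called, and as class I genes are near-identical over long stretches their separate values are uncertain. Tap2, a subunit of the peptide transporter, was lower, at 10.3 against 16.0 CPM (-0.65, -0.79 to -0.51). Its partner Tap1 was found at 3.96 and 3.74 CPM (-0.08, -0.34 to 0.17), and the intervals of the 2 ratios did not overlap. Tapbp, which encodes tapasin, was lower, at 75.3 against 103 CPM (-0.45, -0.50 to -0.40).

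All 5 immunoproteasome and activator genes had ratios below 0, and 4 of them were called lower, where 18.8% of all genes were. Psme1, the alpha subunit of PA28, stood at 325 CPM (321 to 330) in control and 229.5 (226 to 233) with FGF9, for a log2 ratio of -0.50 (-0.53 to -0.47). Psme2, the beta subunit, stood at 323 and 253 (-0.35, -0.38 to -0.32), and its reads can be shared with near-identical copies in the genome. Of the inducible catalytic subunits, Psmb8 stood at 8.76 and 6.32 CPM (-0.47, -0.65 to -0.29) and Psmb9 at 51.6 and 39.6 (-0.38, -0.46 to -0.31). The remaining catalytic subunit Psmb10, at 139 and 129 CPM, was not called (-0.11, -0.15 to -0.07). The median of the 5 ratios was -0.38. Of 18 constitutive proteasome genes 0 were lower (18.8% of all genes) and 1 was higher (15.5%), with a median of 0.05. The higher gene was the assembly factor Pomp (0.54, 0.51 to 0.56). Over class I, peptide loading and immunoproteasome genes together, 1 of 11 was higher (15.5% of all genes) and 6 were lower (18.8%). Their median was -0.35, beside the median of -0.01 for receptors, kinase and transcription factors. By their GENCODE bounds, Psmb9 (chr17:34181987-34187764) and Tap1 (chr17:34187553-34197225, mm10) overlap at their starts on opposite strands. By the RefSeq start sites used for the promoters, 34187330 and 34187556, they do not overlap there, and 225 bases lie between the starts.

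**Figure D2:**
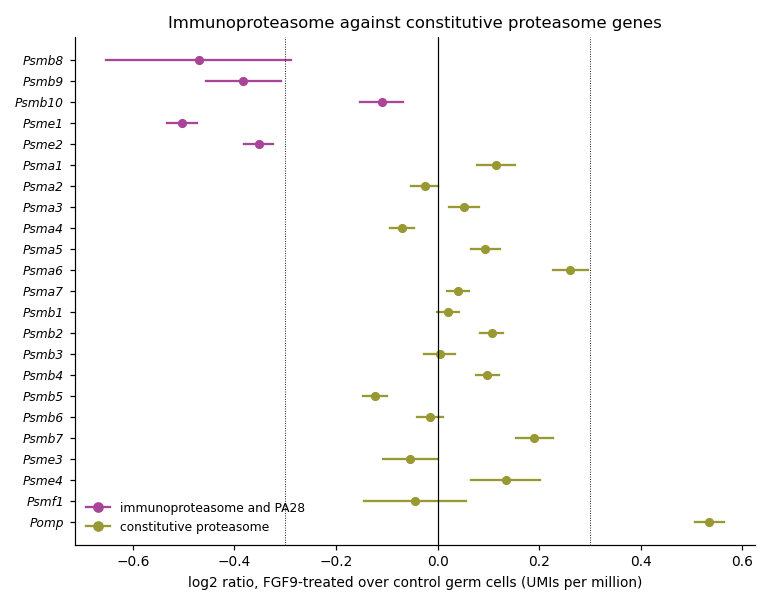
Log2 ratio of FGF9-treated over control germ cells for the 5 immunoproteasome and PA28 genes and for 18 constitutive proteasome genes, with 95% counting intervals and dotted lines at 0.3 on either side of 0. The immunoproteasome genes have a median of -0.38 and the constitutive genes one of 0.05, with Pomp past the upper dotted line.

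Shares of cells with a UMI were taken for Psme1, Serping1 and Ifitm1. Cells were thinned to 5000 UMIs, and germ cells below that depth, 16 in control and 22 in the FGF9-treated library, were left out. Psme1 was found in 75.7% (Clopper-Pearson 74.3 to 77.0) of control and 65.4% (64.0 to 66.8) of FGF9-treated germ cells after thinning, and in 96.1% and 90.3% before. Serping1 was found in 9.71% (8.82 to 10.7) and 4.96% (4.35 to 5.64) after thinning, and in 24.4% and 13.2% before. Ifitm1 was found in 19.8% and 32.2% after thinning, and in 38.7% and 54.4% before. In the feeder class, thinned alike from median depths of 20517 and 26481 UMIs, Ifitm1 was found in 3.23% and 1.59% of barcodes, Serping1 in 3.23% and 3.17%, and Psme1 in 74.2% and 52.4%. Germ cell shares of Ifitm1 lay above the feeder class intervals, whose upper ends were 16.7% and 8.53%, while those of Serping1 lay inside the intervals of the feeder class, where 1 of 31 and 2 of 63 barcodes held a UMI.

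Further genes of the pathway, taken from lists chosen by function, gave these counts, to be read beside the 15.5% of all genes that were higher and the 18.8% that were lower. Of 15 nucleic acid sensors and their adaptors found in the matrices, 12 were compared, and 4 were higher and 4 lower, with a median of -0.03. The higher ones were the RNA sensor Tlr3, at 1.76 and 9.24 CPM (2.39, 2.11 to 2.69), the DNA sensor Aim2 (1.53, 1.22 to 1.85), the RIG-I-like helicase Dhx58 (0.98) and Cgas, the cyclic GMP-AMP synthase (0.61, 0.47 to 0.74). The lower ones were the RIG-I gene Ddx58 (-0.44), the adaptor genes Traf3 (-0.43) and Mavs (-0.33) and the RNA-editing Adar (-0.36), and these 4 are named because the count was small. Among the class I, peptide loading and immunoproteasome genes the counts were 1 higher and 6 lower of 11. Of 36 further induced effectors, 24 were compared, and 13 were lower and 3 higher, with a median of -0.39. The immunity-related GTPases Iigp1 (-2.19, -2.84 to -1.58) and Igtp (-1.06, -1.18 to -0.94) and the RNA-binding Ifit1 (-0.90, -1.43 to -0.38) were lower, and Trim30a (0.88, 0.44 to 1.33) was higher. Of 12 further signalling genes compared, 6 were lower and 0 higher, with a median of -0.30. Usp18, which removes ISG15 from proteins, had the lowest ratio there (-1.50, -1.95 to -1.06), and lower as well were the kinase gene Tyk2 (-0.51) and the inhibitor Socs1 (-0.49). Of 16 further antigen presentation genes compared, 4 were lower, among them the tapasin relative Tapbpl (-1.01) and the lipid-presenting Cd1d1 (-0.58), and 1 was higher, the class I gene H2-Q7 (0.75). Their median was 0.02, with 9 genes above and 7 below 0, so they did not share the lower median of the class I, peptide loading and immunoproteasome genes. The 11 interferon ligand genes listed had 0 UMIs in germ cells of both libraries, which allows up to 0.0443 and 0.0447 CPM for each. The names Mx1 and Mx2 were not in the matrices.

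Cell state in control was read from a score of SSC genes (Gfra1, Ret, Etv5, Id4, Tspan8 and Esrp1) minus differentiating genes (Kit, Sohlh1, Crabp1 and Lmo1), computed on the 4141 thinned control germ cells. The cells were cut at the quartiles of the score into 4 bins, of which the top bin, at the SSC end, held 777 cells and the bottom bin 1057, since tied cells fell below a cut. Of the 31 genes compared, 9 were higher in the top bin, where 7.10% of 11047 genes were, and 0 were lower, where 3.39% were. The median ratio of top over bottom was 0.12 for these genes and 0.02 for all genes compared. The score is a range and not a cell type, and 73.0% and 90.4% of the cells of the middle bins lay within 0.1 of a cut.

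Parp9, Parp14 and Dtx3l were all higher at the SSC end. Parp14 stood, from the bottom to the top bin, at 15.9, 14.3, 15.1 and 23.6 CPM, a top over bottom ratio of 0.57 (0.33 to 0.81). Parp9 stood at 12.4, 11.8, 13.2 and 21.7 (0.81, 0.54 to 1.07) and Dtx3l at 8.87, 10.4, 11.3 and 13.7 (0.63, 0.31 to 0.95). For Parp14 and Parp9 the intervals of the first 3 bins overlapped and that of the top bin lay above them. Serping1 stood at 20.1, 18.9, 23.2 and 30.2 CPM (0.59, 0.37 to 0.80). It was thus higher at the SSC end within control and lower in FGF9-treated than in control germ cells, although the FGF9-treated library had more cells past the upper cut of control, 2667 of 4515 after thinning. Irf2 stood at 9.20, 11.2, 12.6 and 16.7 CPM (0.86, 0.55 to 1.16), where it differed by only 0.02 between the libraries. Ifitm1 (0.76, 0.63 to 0.89), B2m (0.56, 0.34 to 0.77), Jak1 (0.33, 0.25 to 0.40) and Ifnar2 (0.32, 0.04 to 0.60) were the other genes called. The feeder genes Vim (1.00, 0.49 to 1.51) and S100a6 (0.89) had higher levels in the top bin too, at 6.61 and 12.0 CPM, and their part in the B2m result was not tested. With progenitor genes subtracted in place of the differentiating genes, 3 of the 31 were higher (5.03% of all genes), and Serping1 (0.30), Ifitm1 (0.14), B2m, Dtx3l, Jak1 and Ifnar2 lost their calls. Cells with a UMI of 5 cycle genes, named further on, made up 49.8% of the bottom and 45.2% of the top bin, with median depths of 15329 and 14050 UMIs.

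Psme1 ran the other way. It stood at 353 (344 to 362), 332 (324 to 341), 308 (300 to 315) and 303 (293 to 313) CPM from the bottom to the top bin. Its ratio of -0.22 (-0.28 to -0.16) left out 0 and was too small for a call. Psmb9 (-0.21, -0.36 to -0.06), Psme2 (-0.17) and Psmb10 (-0.12) had the same sign, and Psmb8 was at 0.04. Of the 18 constitutive proteasome genes, 16 were below 0 as well, with a median of -0.075 beside -0.17 for the 5 immunoproteasome genes.

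In the FGF9-treated library, split with the cut points of control, 7 genes were higher in the top bin, where 6.50% of 11755 genes were, and 2 were lower, where 3.84% were. Parp14 had a ratio of 0.57 (0.18 to 0.99), Serping1 one of 0.56 (0.10 to 1.05) and Ifitm1 one of 0.88 (0.71 to 1.06), with intervals that overlapped those of control. Irf2 (0.47), Jak1 (0.45), Ifnar2 (0.41) and Tapbp (0.38) were the other genes called higher. Parp9 (0.30, -0.10 to 0.73), Dtx3l (0.21, -0.25 to 0.72) and B2m (0.13, -0.12 to 0.38) were not called. Psmb9 (-0.48, -0.67 to -0.27) and H2-D1 (-0.49, -0.80 to -0.16) were lower, and Psme1 was at -0.27 (-0.36 to -0.19).

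The libraries were also compared within each bin. The ratio of FGF9-treated over control lay between -1.33 and -1.13 for Serping1, between -0.46 and -0.39 for Psme1 and between 0.27 and 0.47 for Ifitm1. The signs of these 3 genes over all germ cells were therefore also found inside every bin. The score genes themselves differed between the libraries inside a bin, so cells of the same bin need not be in the same state. In the bottom bin Gfra1 stood at 7.91 CPM in control and 22.7 in FGF9-treated cells. Ret stood at 20.2 and 56.1, Sohlh1 at 305 and 193, and Id4 was close, at 11.9 and 11.3. Psmb9 (-0.26), Jak1 (0.29) and Ifitm3 (0.27) lost their calls when the ratios were averaged over the bins, and H2-K1 (0.37) gained one. Parp9 (-0.61, -0.82 to -0.39), Dtx3l (-0.43, -0.69 to -0.16) and Parp14 (-0.38, -0.58 to -0.18), without a call over all germ cells, had ratios below 0 in the top bin, with intervals that held 0 in the other 3 bins. B2m was at 0.66, 0.46, 0.42 and 0.23 from the bottom to the top bin.

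**Figure D3:**
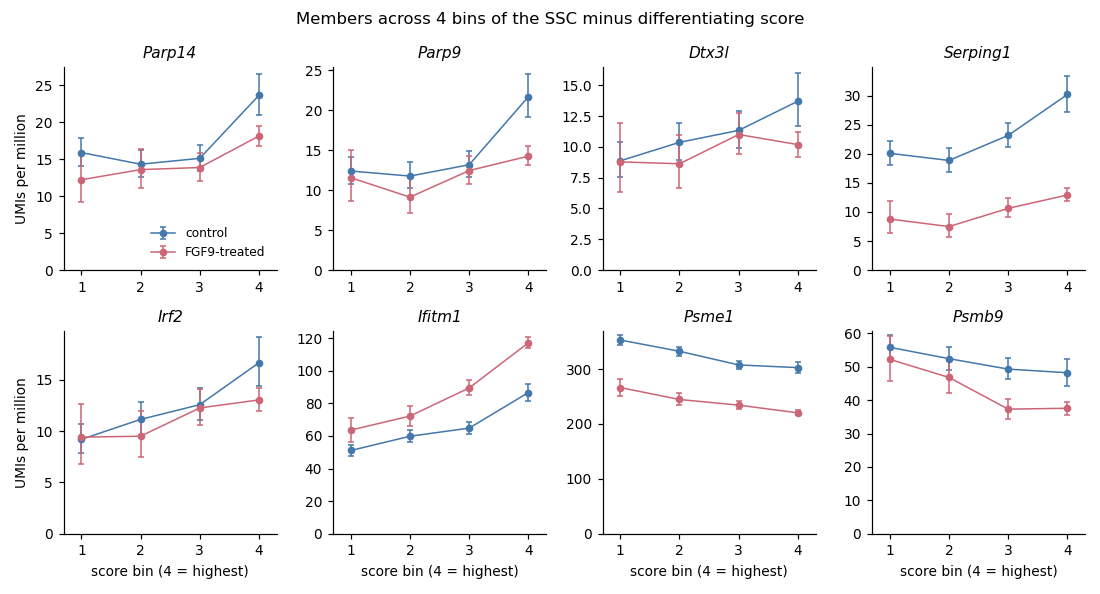
CPM of selected genes in germ cells by bin of the SSC minus differentiating score, with the cut points of control and 95% counting intervals, for control and FGF9-treated cells. In control Parp14 stands at 23.6 in the top bin against 15.9 in the bottom one and Psme1 goes from 353 to 303, while Serping1 is lower in FGF9-treated cells in every bin.

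Cells with a UMI of a single marker gene, after thinning, gave a second view of state in control. Gfra1, Ret and Kit are part of the score and so do not stand apart from it. For Ret, a GDNF receptor subunit, 591 cells with a UMI were set against 3550 without, and 7 of 31 genes were higher, where 6.25% of 12585 genes were, and 0 were lower, where 2.95% were. These were Irf2 (0.83), Serping1 (0.80), Parp9 (0.74), Ifitm1 (0.72), Parp14 (0.67), Dtx3l (0.62) and B2m (0.41), all of them among the 9 called by the score. For Gfra1, with 300 cells, 6 genes were higher (5.36% of all genes) and 1 lower (2.82%). Parp9 was at 0.77 and Parp14 at 0.71 (0.43 to 0.98), and the lower gene was H2-K1 (-0.48). For the progenitor gene Sox3, with 1403 cells, 0 genes were higher (1.95%) and 4 lower (2.52%), namely Ifnar2 (-0.39), Irf2 (-0.35), Parp9 (-0.35) and Parp14 (-0.35). For the progenitor gene Neurog3, with 743 cells, 0 were higher (1.49%) and 1 lower (1.44%), which was Irf2 (-0.63).

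For markers of differentiation the genes lay on both sides. For Kit, the receptor of differentiating spermatogonia, with 229 cells, 3 genes were lower (2.66%), namely Ifitm1 (-0.66, -0.90 to -0.43), B2m (-0.51) and Ifngr1 (-0.41). Parp14 was the 1 gene that was higher (2.47%), at 0.37 (0.02 to 0.70), so it lay above the rest of the cells both with Gfra1 and with Kit. For Stra8, which responds to retinoic acid, with 125 cells, Psmb8 (0.72) and Serping1 (0.44) were higher (2.75%) and Irf2 (-0.84) and Ifitm3 (-0.61) lower (1.91%). Psme1 had ratios between -0.14 and 0.14 for all 6 markers.

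Cycling cells differed between the libraries, with Mki67 at 41.4 and 156 CPM in germ cells. A UMI of at least 1 of 5 cycle genes (Mki67, Ube2c, Pclaf, Rrm2 and Cdk1) was found in 1978 of 4141 control and 2625 of 4515 FGF9-treated cells after thinning. In control, 0 genes were higher in the cells with such a UMI (2.18% of 12585 genes) and 1 was lower (1.95%), which was Tap1 (-0.41). In the FGF9-treated library Isg15 was higher (0.37, 0.18 to 0.57), where 7.91% of 12559 genes were, and 7 genes were lower, where 9.25% were. The lower genes were Tap2 (-0.53), Parp9 (-0.46), Dtx3l (-0.44), Parp14 (-0.35), Tapbp (-0.35), Psmb8 (-0.34) and Bst2 (-0.32). Among cells without a UMI of the 5 genes, the library comparison gave 5 higher and 9 lower of 31 genes (12.5% and 15.0% of 12371 genes), and among those without a UMI of the full list of 12 cycle genes (99 control and 186 FGF9-treated cells) it gave 2 and 5 of 16 (7.16% and 9.16% of 5545 genes).

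Within each library the genes went together with other induced genes. Germ cells with at least 5 UMIs of the 34 further induced effectors found in the matrices, after thinning, were set against those with at most 1. There were 532 such cells in control (12.8%, 11.8 to 13.9) and 292 in the FGF9-treated library (6.47%, 5.77 to 7.22), set against 1721 and 2404 cells. The guanylate-binding gene Gbp2 with Oasl2 and Ifi27 held 48.8% of the UMIs of the list in the FGF9-treated library and a like share in control. Of the 31 genes, 22 were higher in the rich cells of control, where 7.75% of 11362 genes were, and 0 were lower, where 4.88% were. In the FGF9-treated library 20 were higher, where 5.71% of 11520 genes were, and 0 were lower, where 4.37% were. The median ratios were 0.50 and 0.57, beside 0.01 and -0.01 for all genes compared.

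Parp9, Parp14, Dtx3l and 4 of the 5 immunoproteasome genes were higher in rich cells of both libraries, and Psme2 was at 0.20 (0.14 to 0.27) without a call in control and 0.35 (0.27 to 0.44) in the FGF9-treated library. Psmb8 stood at 16.3 CPM in rich and 5.16 in poor cells of control (1.66, 1.32 to 2.01), and at 13.8 and 4.55 in the FGF9-treated library (1.60, 1.16 to 2.03). Parp14 stood at 29.5 and 11.2 in control (1.40, 1.15 to 1.64) and at 27.6 and 13.0 in the FGF9-treated library (1.09, 0.79 to 1.38). Serping1 was at 1.59 and 1.04, Tap2 at 1.02 and 1.47, Parp9 at 1.01 and 1.23, Isg15 at 0.94 and 1.09, and Psme1 at 0.37 and 0.51. Those genes were higher in both libraries. Ifitm1 was called in control and not in the FGF9-treated library, and the difference was not tested. It stood at 107 in rich and 44.2 in poor cells of control (1.27, 1.15 to 1.40), and at 97.1 and 101 in the FGF9-treated library (-0.06, -0.21 to 0.08). Ifitm2 was at 0.36 (0.21 to 0.51) in control and -0.05 (-0.22 to 0.11) in the FGF9-treated library. Ifnar1, Ifngr1, Ifngr2, Irf3 and H2-K1 were among the genes without a call in both. Median depths were 14578.5 UMIs in rich and 14808 in poor cells of control, and 13484.5 and 13037 in the FGF9-treated library. In control 23.3% of rich and 15.9% of poor cells were in the top bin of the score, and in the FGF9-treated library 59.9% and 58.7%.

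**Figure D4:**
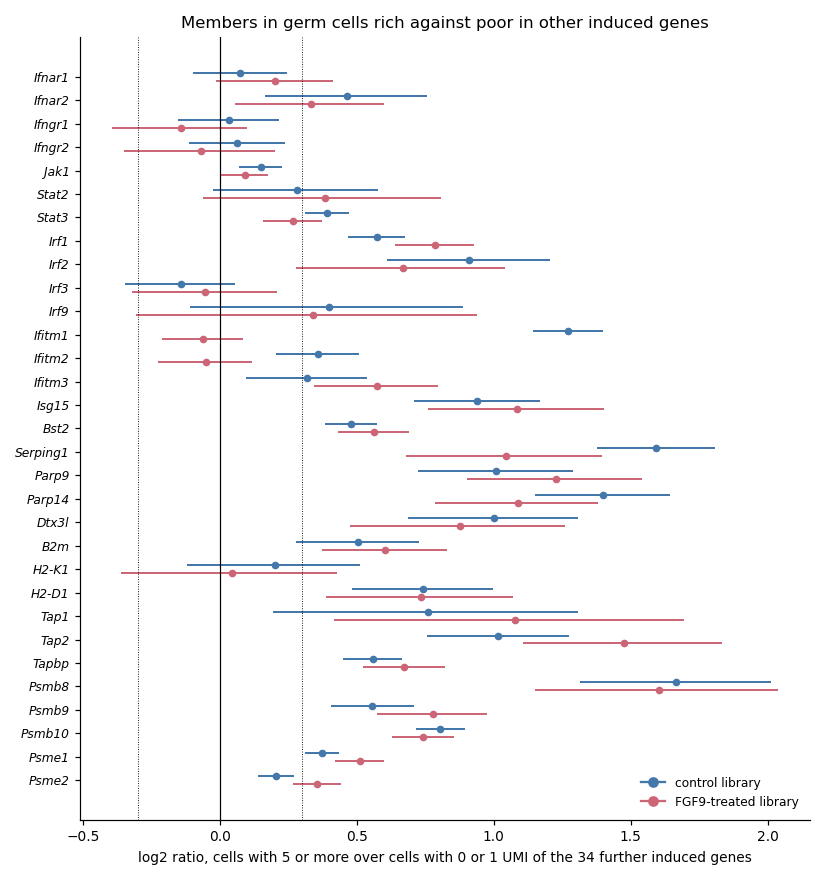
Log2 ratio of germ cells rich over poor in UMIs of further induced genes for the compared genes, in control and in the FGF9-treated library, with 95% counting intervals. Psmb8 stands at 1.66 and 1.60, and Ifitm1 at 1.27 in control against -0.06 in the FGF9-treated library.

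The feeder class gave a reference for the levels of class I genes in a somatic cell type. Set against germ cells, it had 16 of 31 genes higher in control, where 19.1% of 12692 genes were, and 9 lower, where 32.8% were. In the FGF9-treated library 14 were higher, where 23.0% of 12815 genes were, and 12 lower, where 49.7% were. All 6 class I and peptide loading genes were higher in the control feeder class, and 5 of the 6 in the FGF9-treated one. All 5 immunoproteasome genes were lower in both. Their median log2 ratio was -0.46 in control and -0.90 with FGF9, beside -0.56 and -0.71 for all genes compared. Psme1 (-0.45 and -0.43) and Psme2 (-0.38 and -0.45) lay above the medians of all genes, and Psmb9 (-1.46 and -1.30) below them. B2m stood at 1284 and 1288 CPM in the feeder class, 55.7-fold and 39.3-fold the germ cell level. H2-K1 was 48.5-fold and 43.0-fold, H2-D1 11.6-fold and 11.7-fold, and Ifitm3 66.3-fold and 71.2-fold the germ cell level. Ifitm2 stood at 1172 and 1332 CPM in the feeder class, 23.7-fold and 18.1-fold the germ cell level.

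Ifitm1 and Psmb8 had higher levels in germ cells. Ifitm1 stood at 8.67 and 7.51 CPM in the feeder class, 0.14-fold and 0.07-fold the germ cell level, so that genes of the same cluster on chromosome 7 had opposite orders. Psmb8 had 0 UMIs in the control feeder class, which allows up to 4.33 CPM beside 8.76 in germ cells, and 1 UMI in that of the FGF9-treated library (log2 -3.56, -8.87 to -1.07). Irf7 had 8 UMIs in the feeder class of each library, beside 0 in control and 2 in FGF9-treated germ cells. Between the libraries, 19 genes could be compared in the feeder class, of which 1 was higher (11.7% of 3955 genes) and 6 lower (16.8%). Ifitm3 was higher (0.42, 0.32 to 0.52), and Irf1 (-0.98), Stat3 (-0.86), Tapbp (-0.73), Psmb10 (-0.56), Psme1 (-0.49, -0.76 to -0.21) and Psme2 (-0.43) were lower. Irf1, Tapbp, Psme1, Psme2 and Ifitm3 had the same calls in germ cells, while B2m was level in the feeder class (0.00, -0.11 to 0.12). Feeder-class barcodes held germ cell RNA, as the Dazl level shows, and its part in these ratios was not tested.

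**Figure D5:**
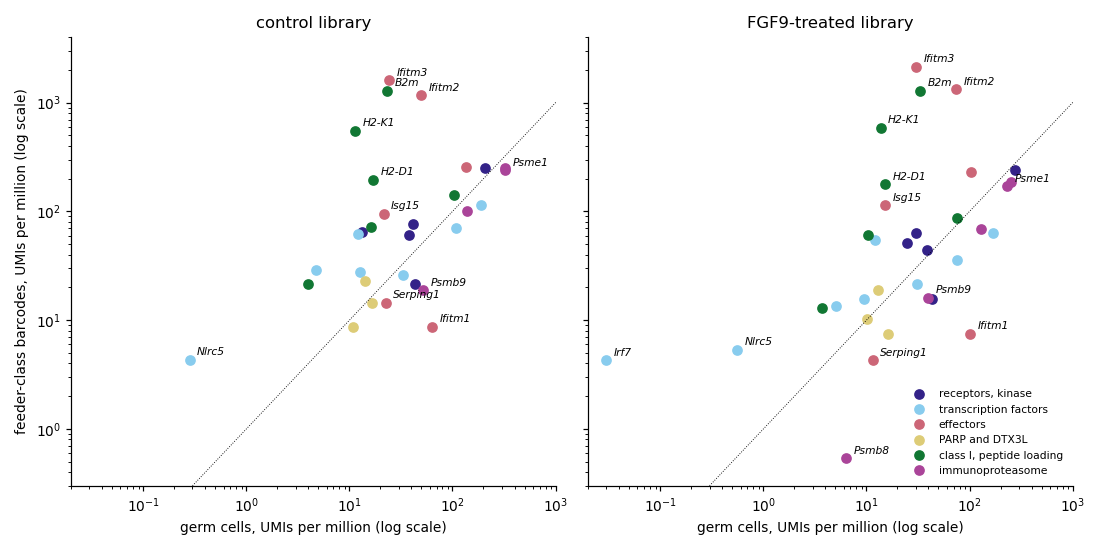
CPM of the genes in germ cells and in feeder-class barcodes of both libraries, on log axes, coloured by role, with a dotted line of equal level; a gene at 0 in either class is not drawn. B2m, H2-K1 and Ifitm3 lie far toward the feeder class, at 1284, 553 and 1606 CPM in control feeders, while Ifitm1 lies on the germ cell side at 63.7 against 8.67.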

How the data were processed

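Droplet single-cell RNA sequencing (10x 3' v3.1) gave 1 library per treatment. The deposited values are raw UMI counts for each gene in each barcode, made by the authors with Cell Ranger (3.1.0 in the matrix header) on mm10. The submitters' processing notes also name Seurat 3.1. A KIT antibody tag was not analysed here. The libraries held 71481926 UMIs in 5312 barcodes and 72669787 in 5959.

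Germ and feeder-class barcodes were separated by fixed UMI limits, and no doublet caller was run, but an alternative left out the 76 control and 143 FGF9-treated barcodes over 2.5 times their median UMIs. Levels are summed UMIs per 1000000 with exact Poisson intervals, ratios have exact conditional binomial intervals and shares Clopper-Pearson intervals, all 95%. A ratio was taken with at least 100 UMIs over both sides. The score is the mean z of log(1 + UMIs per 10000) of the SSC genes minus that of the differentiating genes, on cells thinned to 5000 UMIs (seed 7). Named are all 33 genes, up to 4 compared genes with the largest ratio of each further list, and the genes used for states, classes and markers. A result of 1 listed gene is not reported here. The genes and lists were chosen with earlier results of these data known. The split by further induced genes, the removal of the richest cell and 2 shorter cycle lists were added after the data were seen. Positions are from GENCODE vM21 (mm10). Alternatives are given in the closing section. Python 3.11.15, numpy 2.4.6, scipy 1.17.1, pandas 2.3.3 and matplotlib 3.10.9 were used, and the functions were tested on simulated data.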

Additional observations from a re-analysis of the deposited data

How the results depend on the processing

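With 1 library per treatment the intervals cover counting error, and differences between cultures, passages or libraries cannot be told apart from those between treatments. Low genes such as Irf7, Nlrc5 and Tap1 are limited by depth. The choice of cells by cycle genes changed the results most. In germ cells without a UMI of the 12 cycle genes the library comparison gave 2 higher and 5 lower of 16 genes (7.16% and 9.16% of all genes compared), a median of -0.19 for receptors, kinase and transcription factors and -0.30 for the immunoproteasome, and Ifitm1 at -0.082. Without a UMI of the list other than Cenpf 3 of 29 were higher (9.40%), the immunoproteasome median was -0.52 and Ifitm3 was at -0.11, and without a UMI of 5 cycle genes that median was -0.33. Both shorter lists were chosen after seeing the data, and the cause was not tested. The mean of the ratios within the 4 score bins gave medians of -0.26 for class I, peptide loading and immunoproteasome genes and -0.32 for the immunoproteasome. A call at 0.5 left 4 lower genes (10.2% of all genes) and 4 higher (9.75%).

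For the score in control, thinning to 8000 UMIs gave 2 lower genes (4.24% of all genes), the FGF9-treated library 2 (3.84%), cells without a UMI of 5 cycle genes 1 of 29 (4.0%), and cells without a UMI of the list other than Cenpf 2 higher (5.78%) and 2 lower (5.33%) of 15. Subtracting progenitor genes gave 3 higher genes (5.03%), and cells without a UMI of the 12 cycle genes 0 of 5 (4.64%). Of the alternative values of counts and medians, 66 stayed within the limits set for them and 17 moved. Irf1, Serping1, Isg15, Tap2, Tapbp, Psme1 and Ifnar2 kept their calls between the libraries, at 0.3, under each alternative in which they could be compared, whereas Ifitm3 kept its call in 5 of 11, with 0.27 in germ cells under 10 UMIs of Vim and S100a6. No paired analysis was possible because each treatment has 1 library.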

Other observations

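UMIs of the 34 further induced effectors were unevenly spread over germ cells. After thinning, 21 control and 5 FGF9-treated germ cells held 10 or more of them, beside means of 2.28 and 1.75. The highest control cell held 22 and had 15699 UMIs in all before thinning, 19 of them of Gbp2 and 22 of Dazl. Ifitm3 had a variance of 4.69 times its mean over FGF9-treated germ cells and 1.37 times over control germ cells, and 1 FGF9-treated cell held 49 thinned UMIs of it.

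Sertoli and Leydig markers were low in germ cells of both libraries, and endothelial markers less so. Sertoli markers summed to 8.35 and 11.2 CPM. Leydig markers summed to 4.37 and 5.08, with Insl3, Hsd3b1 and Cyp17a1 at 0 and the highest marker at 4.05 and 5.05. Endothelial markers summed to 34.2 and 50.7, with the highest marker at 31.4 and 45.6. Their part in the results was not tested.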
